A study of Drosophila melanogaster with 21 samples.

Results

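The mRNAs of the translation initiation, elongation and release factors were followed in Drosophila brains that differed in miR-34 genotype and age. The members were the genes of the count table whose FlyBase symbol begins with eIF, eEF or eRF and a number, 52 of 17612 genes. The rule uses symbols alone and no measured value, but the group was taken up with earlier results of these data known. PolyA RNA was sequenced from pooled brains of male flies, as 2 separate sets of libraries with 3 libraries in every group. The 12 libraries of set 1 came from control and miR-34 mutant brains, each at 3d and 20d. The 9 libraries of set 2 came from controls alone, aged 3d, 20d or 50d. Control flies were of stock 5905, in the w1118 background that the mutants share, and the mutants carry a deletion of miR-34 ({delta}miR-34) in the whole animal, so that any effect of miR-34 outside the brain is part of the comparison. Flies were kept on molasses food, at 25 ºC by the labels, while the study's methods give a different temperature for crosses. The comparisons ask how the translation machinery of the brain differs between mutant and control at each age, and how it moves with age in each genotype.

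Initiation factors bring the initiator tRNA, the small ribosomal subunit and the mRNA together. eIF2 is a GTPase of alpha, beta and gamma subunits that carries the initiator tRNA, and eIF2B recharges it with GTP, which is the step that stress kinases block by phosphorylating eIF2alpha. eIF3 is the large multisubunit scaffold on the small subunit, and the eIF4 factors recognise the cap, unwind the leader and recruit the ribosome. The eEF1 and eEF2 factors deliver aminoacyl-tRNA and move the ribosome along the mRNA, and eRF1 and eRF3 release the finished chain at the stop codon. In many animals the mRNAs of elongation factors and of several initiation factors share the control of ribosomal protein mRNAs by the TOR pathway, which acts on their translation more than on their abundance. The measurements here are of mRNA only.

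A library of set 1 held 17932132 to 23109013 counts in total, and one of set 2 held 30890607 to 43713430. The members took 1.09% to 1.24% of all counts in the 3d libraries of set 1, 1.15% to 1.17% in the 20d controls and 1.35% in each of the 20d mutants. In the controls of set 2 they took 1.23% to 1.31% at 3d, 1.27% to 1.41% at 20d and 1.29% to 1.41% at 50d. Levels are given as CPM, counts scaled to a common library size with TMM factors, and levels are compared between genes only as CPM per kilobase of merged exon. The libraries carried the neuronal markers elav, nSyb, brp, Syt1 and para, which summed to 5342 to 6062 CPM in 3d controls, 7894 to 8128 in 3d mutants, 5098 to 5744 in 20d controls and 5421 to 5658 in 20d mutants. The glial markers repo, alrm, Gs2, moody and wrapper summed to 3125 to 3575, 3661 to 3797, 2628 to 2671 and 2218 to 2289 CPM in the same order. At 3d each of the 5 neuronal markers was higher in the mutants without overlap. The glial sum is mostly Gs2, and the glial markers did not move together: at 3d Gs2 and moody were higher in mutants, alrm (252 to 267 against 325 to 382 CPM) and wrapper lower, and repo overlapped, while at 20d repo (138 to 145 against 105 to 119 CPM) and moody were higher and Gs2, alrm and wrapper lower. In set 2 the neuronal sum was 6205 to 6849 CPM at 3d, 4294 to 4812 at 20d and 4259 to 4802 at 50d, and each of the 5 neuronal markers was lower at 20d than at 3d without overlap. The glial sum there was 3504 to 3630, 2490 to 2563 and 2272 to 2495 CPM, with lower Gs2 but higher repo and wrapper at the later ages.

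Markers of other tissues differed between the groups as well. The photoreceptor sum, mostly ninaE, overlapped between mutant and control at both ages of set 1, and it varied widely within a group. It was 26912 to 37299 CPM in 3d controls, 23412 to 32741 in 3d mutants, 20427 to 35203 in 20d controls and 16643 to 37689 in 20d mutants. At 3d ninaC (3763 to 5293 against 2219 to 2972 CPM) and trp were higher in mutants and ninaE lower, without overlap. In set 2 that sum was 39845 to 41929 CPM at 3d, 41684 to 51702 at 20d and 28124 to 38696 at 50d. The markers did not move together there. From 3d to 20d ninaE rose (23061 to 26124 against 32345 to 40717 CPM), while trp (3521 to 4153 against 2042 to 2583), trpl, norpA and ninaC fell, all without overlap. Of the 5 fat body markers, Lsp1alpha, Lsp1beta and Fbp1 were lower in mutants at both ages without overlap, with Lsp1beta at 79.4 to 213 CPM in 3d controls, 5.38 to 8.81 in 3d mutants, 59.6 to 77.2 in 20d controls and 1.90 to 2.54 in 20d mutants, and Lsp1alpha at 0 in every 3d mutant. Lsp2 and apolpp overlapped between the genotypes. In set 2 Lsp2 was at 754 to 1119 CPM at 3d, 224 to 278 at 20d and 21.2 to 39.3 at 50d, and Lsp1beta fell likewise. From 3d to 20d Lsp1alpha (0.119 to 0.806 against 13.9 to 31.1 CPM) and apolpp rose there without overlap, and Fbp1 overlapped. The haemocyte and muscle sums overlapped between mutant and control at both ages, the muscle sum only narrowly at 3d (65.7 to 104.8 CPM in controls, 102.8 to 173.1 in mutants). At 3d the muscle markers up (18.5 to 26.5 against 9.34 to 14.8 CPM) and Mlc2 were higher in mutants without overlap. At 20d the haemocyte marker Sr-CI (28.4 to 32.4 against 15.5 to 26.5 CPM) and Act88F, at under 1 CPM, were. The other markers of these tissues overlapped. In set 2 the haemocyte sum was 171 to 206 CPM at 20d and 251 to 289 at 50d. Testis markers summed to 2.81 CPM or less in every library. The part of these differences in the results was not tested, and in whole brains fewer cells of a type and less RNA per cell cannot be told apart. mir-34 had no row in the count table, so the genotype labels were not checked against the deleted gene and directions are those of the libraries as labelled.

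The elongation factors and the helicase eIF4A dominated the group. eEF1alpha1, the GTPase that delivers aminoacyl-tRNA, held 17.4% of the members' summed CPM as a mean over the 7 groups, and eEF2, the translocase, held 16.9%. eIF4A held 12.2%, and eEF1alpha2, the second eEF1alpha gene, held 9.13%. Per kilobase, the 3d controls of set 1 had a mean of 760 CPM for eEF1alpha1, 678 for eIF4A, 674 for eEF2 and 467 for eEF1alpha2. eEF5, the fly eIF5A that eases the ribosome through hard peptide bonds, followed at 303. The subunits of eIF2 lay lower, at 33.5 CPM per kilobase for eIF2alpha, 39.9 for eIF2beta and 18.2 for eIF2gamma, and the 5 subunits of eIF2B, which acts catalytically, lay between 8.08 for eIF2Bepsilon and 24.5 for eIF2Bbeta. Within eIF3 the level per kilobase ran from 42.8 for eIF3d1 to 179 for eIF3f1 in those libraries. Within these complexes the subunit mRNAs were at unequal levels per kilobase.

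A further 8 members, eIF3d2, eIF3f2, eIF3g2, eIF4E3, eIF4E4, eIF4E5, eIF4E7 and eIF4H2, had too few counts to be tested in set 1, with at most 8 counts in a library. They are paralogs of factors that the brain expresses, and eIF4E3 is known for its role in the testis. In set 2 only eIF4E3 passed the filter, and the other 7 had at most 32 counts in a library. For 6 of these 7 the highest count of set 2 fell in the same library, replicate 2 of the 3d controls, with 23 counts of eIF3d2 against 5 in the next library, 16 of eIF3f2 against 13, 24 of eIF4E4 against 9, 32 of eIF4E5 against 9, 17 of eIF4E7 against 5 and 20 of eIF4H2 against 3. The testis markers bam, vas, can, aly and tomb summed to 0.955 CPM in that library, against 0.504 and 0.939 in the other 3d controls. eIF4E3 also had its highest level among the 3d controls there, with 0.627 CPM against 0.0755 and 0.0303, and was called in no comparison of set 2. The paralog eIF4E6, by contrast, was tested in both sets. That left 44 members tested in set 1 and 45 in set 2.

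At 20d the members were mostly higher in the mutant. With edgeR's quasi-likelihood test and an adjusted p under 0.05 over all 9961 genes tested, 24 of 44 members (54.5%) were called, 23 higher and 1 lower, where 32.1% of all genes were called (16.6% higher and 15.4% lower). The median log2 fold change was 0.19 for the members and -0.01 for all genes. At 3d 16 of the 44 (36.4%) were called, 5 higher and 11 lower, against a background of 31.4% (16.5% higher and 15% lower), and the median was -0.06, against -0.02 for all genes. The share called at 3d is thus near that of all genes, while at 20d the calls lay almost all on the higher side. Of the 5 higher calls at 3d, that of eIF3a held in all 6 fits with 1 of the compared libraries left out, and in each of these fits only 1 to 2 members were called higher. In set 1 the summed CPM of the members ran from 12212 to 12745 in 3d controls and from 11372 to 12459 in 3d mutants, which overlap. At 20d it ran from 10514 to 11418 in controls and 12582 to 13361 in mutants, which do not. In the controls of set 2 it was 13020 to 13981 at 3d, 12363 to 13964 at 20d and 12174 to 13642 at 50d. The 20d mutants thus lay within the range of the 20d controls of set 2, though the sets were scaled separately.

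**Figure D1:**
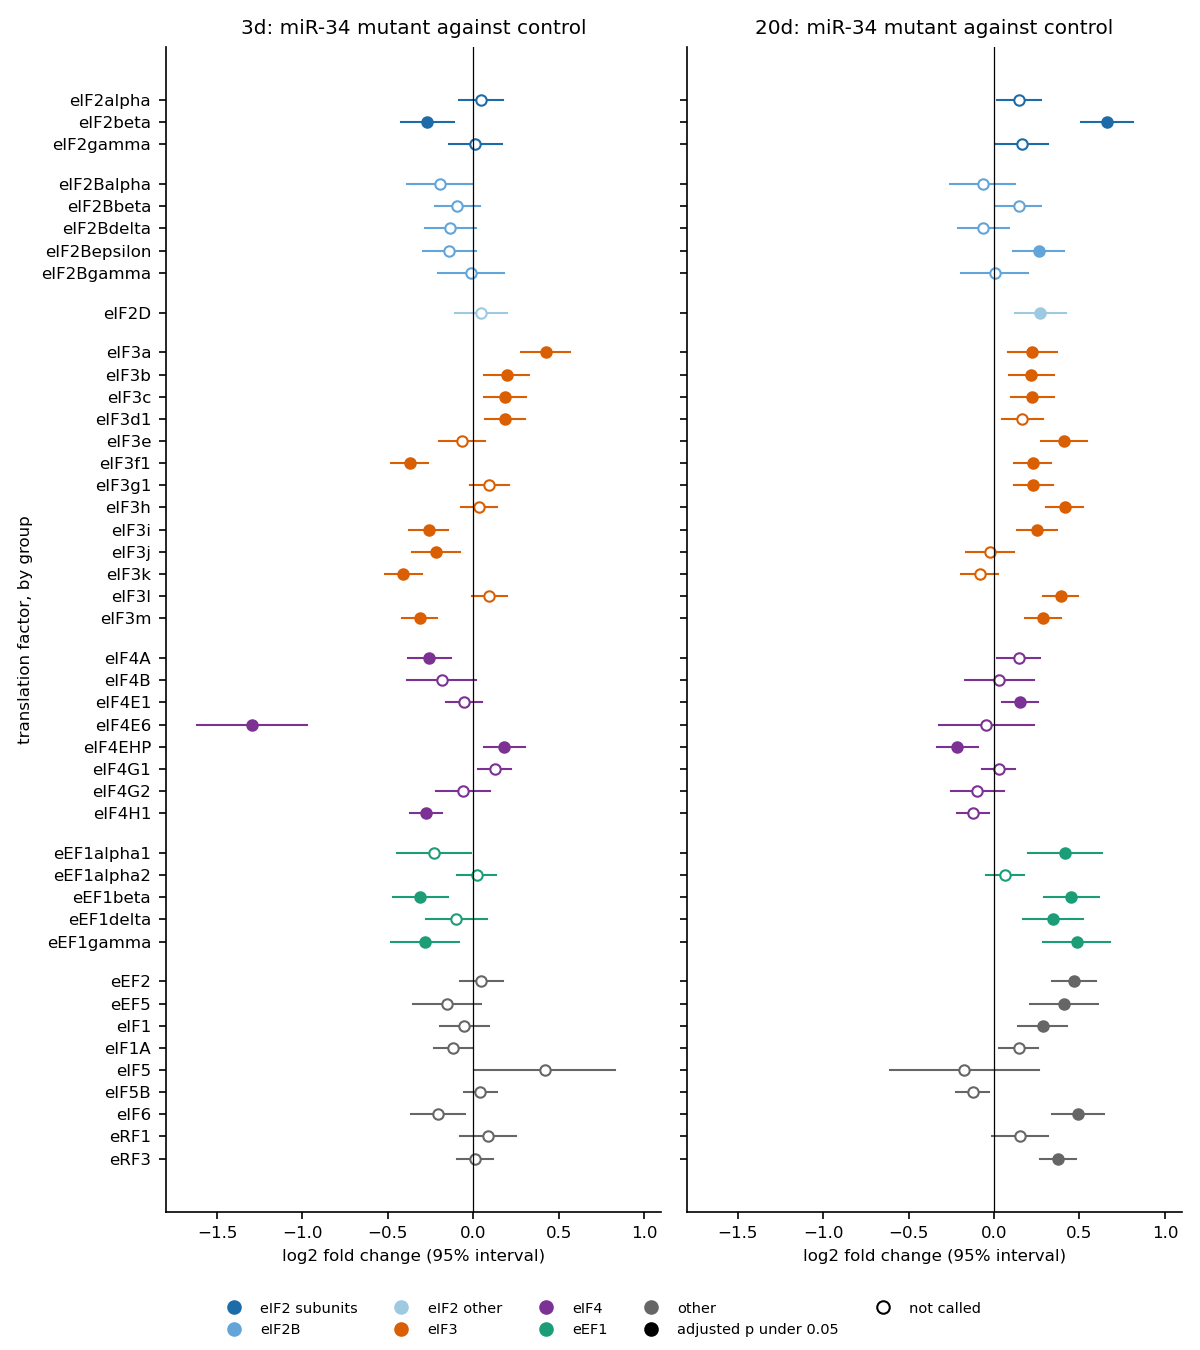
Log2 fold change of miR-34 mutant against control for the 44 tested translation factors at 3d (left) and 20d (right). Bars are approximate 95% intervals, colours mark the factor group and filled points have an adjusted p under 0.05 (3 libraries a group). At 20d 10 of 13 eIF3 subunits and 4 of 5 eEF1 subunits are filled and right of 0, whereas at 3d the eIF3 subunits fall on both sides.

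In eIF2 the beta subunit stood apart from its partners. eIF2beta (3L:12525093-12526731 in BDGP6.54, minus strand), which binds the initiator tRNA complex and eIF5, was at 45.6, 49.1 and 46.2 CPM in 20d controls and at 72.8, 72.9 and 77.2 CPM in 20d mutants. The 2 groups were far apart, with a log2 fold change of 0.66 ± 0.08 (SE, n = 3 each, adjusted p = 2.4e-05), the highest of any member at that age. At 3d the order was the opposite, with 50.5, 45.1 and 39.5 CPM in controls and 37.6, 36.2 and 38.4 CPM in mutants (log2 fold change -0.27 ± 0.08, adjusted p = 0.018). That call was lost without replicate 1 of the controls (adjusted p = 0.094) or without replicate 1 or 2 of the mutants (0.051 and 0.069). eIF2alpha, the subunit that stress kinases phosphorylate, was at 48.1, 52.5 and 52.1 CPM in 3d controls and 50.9, 50.6 and 56.3 CPM in 3d mutants. At 20d it was at 49.2, 46.6 and 46.0 CPM in controls and 49.6, 51.9 and 55.2 CPM in mutants, and it was called at neither age (95% interval of the log2 difference at 20d, 0.02 to 0.27). eIF2gamma, the GTPase subunit, was at 40.8, 36.6 and 36.0 CPM in 20d controls and 45.2, 39.5 and 42.4 CPM in 20d mutants, which overlap (95% interval 0.01 to 0.32). Of its merged exon bases 16.0% are shared on the same strand with Su(var)3-9. The intervals of eIF2alpha and eIF2gamma leave out 0. Only 2 of the 3 eIF2 subunits, eIF2beta included, had an unadjusted p under 0.05 at 20d. The ratio of eIF2beta to eIF2alpha within a library, each per kilobase, was 0.918 to 0.995 in 3d mutants, 1.25 to 1.42 in 20d controls and 1.88 to 1.98 in 20d mutants. That ratio does not depend on the scaling of the libraries, and the ranges of the mutants at both ages lay outside those of their controls (1.02 to 1.41 at 3d).

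The exchange factor eIF2B moved little. At 3d none of its 5 subunits was called, none had an unadjusted p under 0.05, DESeq2 called 0 as well, and the log2 fold changes ran from -0.20 to -0.01. At 20d only eIF2Bepsilon, the catalytic subunit, was called, at 21.4, 20.5 and 19.9 CPM in controls and 24.5, 24.7 and 25.0 CPM in mutants (0.26 ± 0.08, adjusted p = 0.019). The other 4 subunits had log2 fold changes from -0.07 to 0.14. eIF2D, a factor that can place tRNA on the ribosome without eIF2, was at 24.9, 25.8 and 22.2 CPM in 20d controls and 29.0, 28.6 and 30.3 CPM in 20d mutants, with no overlap (0.27 ± 0.08, adjusted p = 0.015). At 3d it did not differ beyond its spread (0.05 ± 0.08).

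eIF3 split at 3d and was mostly higher at 20d. At 20d 10 of its 13 tested subunits (76.9%) were called higher in the mutant, where 16.6% of all genes were. None was called lower, 11 had a positive and 2 a negative log2 fold change, and the median was 0.23. At 3d 4 subunits were higher (30.8%), eIF3a, eIF3b, eIF3c and eIF3d1. Another 5 were lower (38.5%), eIF3f1, eIF3i, eIF3j, eIF3k and eIF3m. Of all genes 16.5% were higher and 15% lower at that age. eIF3a, eIF3c, eIF3e, eIF3f, eIF3h, eIF3k, eIF3l and eIF3m form the core octamer in mammals, and eIF3b, eIF3g and eIF3i form a separate module, so subunits of the core and of that module were found on both sides.

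eIF3a, the scaffold subunit, has the longest merged exon length of the complex. It was at 182, 172 and 181 CPM in 3d controls and 232, 230 and 255 CPM in 3d mutants. The groups did not overlap, and the log2 fold change was 0.42 ± 0.07 (adjusted p = 0.0007). eIF3k, a small subunit of the core, was at 123, 119 and 122 CPM in 3d controls and 90.4, 87.0 and 96.7 CPM in 3d mutants. It lay lower in every mutant library (-0.41 ± 0.05, adjusted p = 7.8e-05). eIF3f1 was at 246, 229 and 225 CPM in 3d controls and 179, 171 and 190 CPM in 3d mutants, again without overlap (-0.37 ± 0.06, adjusted p = 0.00021). eIF3m and eIF3i, of the core and of the b-g-i module, were lower by 0.31 and 0.26 on the log2 scale, with adjusted p of 0.00055 and 0.0042. The calls for eIF3b (0.20), eIF3c (0.19) and eIF3d1 (0.19) were weaker, with adjusted p of 0.039, 0.039 and 0.033, and with 1 library left out eIF3c passed in none of the 6 fits, eIF3b in 1 and eIF3d1 in 3, with adjusted p of up to 0.109, 0.184 and 0.147. eIF3j (-0.22, adjusted p = 0.034) passed in 1, with up to 0.117. The ratio of eIF3a to eIF3k within a library, each per kilobase, was 0.316 to 0.326 in 3d controls and 0.563 to 0.580 in 3d mutants.

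At 20d eIF3h was at 123, 124 and 114 CPM in controls and 163, 160 and 158 CPM in mutants (0.41 ± 0.05, adjusted p = 6.7e-05). eIF3e, which budding yeast lacks, was at 92.3, 94.7 and 86.2 CPM in controls and 113, 127 and 122 CPM in mutants (0.41 ± 0.07, adjusted p = 0.00047). eIF3l was at 219, 209 and 201 CPM in controls and 273, 274 and 278 CPM in mutants (0.39 ± 0.05, adjusted p = 7.1e-05). All 3 were separate between the groups and none of the 3 was called at 3d. The subunits that had been lower at 3d were divided: eIF3m (0.29), eIF3i (0.25) and eIF3f1 (0.23) were now called higher, whereas eIF3j (-0.02 ± 0.07) and eIF3k (-0.09 ± 0.05) were not called. eIF3a, eIF3b and eIF3c were higher at both ages, and at 20d these 3 passed in 3, 2 and 3 of the 6 fits with 1 library left out (adjusted p up to 0.131, 0.0816 and 0.064). On the opposite strand 16.8% of the merged exon bases of eIF3h overlap senju.

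The eIF4 factors did not follow eIF3. At 20d 1 of 8 tested members was higher and 1 lower, with a median of -0.01, and at 3d 1 was higher and 3 were lower. eIF4E1, the main cap-binding protein, was the one higher at 20d, at 227, 245 and 249 CPM in controls and 268, 264 and 269 CPM in mutants (0.15 ± 0.05, adjusted p = 0.043, and up to 0.155 with 1 library left out). eIF4EHP, the cap-binding homologue that competes with eIF4E and represses translation, was at 412, 414 and 428 CPM in 3d controls and 514, 467 and 441 CPM in 3d mutants, and at 360, 346 and 372 CPM in 20d controls and 325, 305 and 298 CPM in 20d mutants. It was thus called higher at 3d (0.18 ± 0.06, adjusted p = 0.036) and lower at 20d (-0.22 ± 0.06, adjusted p = 0.015), the reverse of the members that were lower at 3d and higher at 20d. The call at 3d held only without replicate 3 of the mutants among the 6 fits with 1 library left out (adjusted p up to 0.186), and the call at 20d was lost without replicate 3 of the controls or replicate 2 or 3 of the mutants (up to 0.0665). On the same strand 6.96% of its merged exon bases overlap Syx1A.

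eIF4A, the DEAD-box helicase of the cap complex, was at 1751, 1591 and 1706 CPM in 3d controls and 1426, 1345 and 1450 CPM in 3d mutants (-0.26 ± 0.06, adjusted p = 0.0078). At 20d it was at 1399, 1452 and 1453 CPM in controls and 1468, 1620 and 1673 CPM in mutants, which did not overlap, but the difference was not called (0.15 ± 0.06, adjusted p = 0.099). eIF4H1, a cofactor of the helicase, was also lower at 3d (-0.28 ± 0.05, adjusted p = 0.0006) and not called at 20d (-0.12 ± 0.05). The scaffold eIF4G1 was at 302, 323 and 305 CPM in 3d controls and 339, 331 and 343 CPM in 3d mutants without being called (adjusted p = 0.072), and at 20d its 95% interval was -0.07 to 0.12. eIF4B, another helicase cofactor, was called at neither age (95% intervals -0.39 to 0.01 at 3d and -0.17 to 0.23 at 20d).

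eIF4E6, a short eIF4E paralog, had the largest difference of any member at 3d, from a low level. It was at 4.91, 4.46 and 4.08 CPM in 3d controls and 2.02, 2.02 and 1.38 CPM in 3d mutants (-1.30 ± 0.16, adjusted p = 5.2e-05). At 20d the groups overlapped, at 6.99, 8.01 and 7.09 CPM in controls and 7.08, 7.65 and 6.64 CPM in mutants (-0.05 ± 0.14). As a close paralog of eIF4E1 it may share reads with other eIF4E genes, as the eEF1alpha genes may with each other, and its values are uncertain to that degree.

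All 5 eEF1 genes had a higher mean in the mutant at 20d, and 4 of them were called. eEF1gamma, a subunit of the exchange complex that recharges eEF1alpha, was at 259, 351 and 304 CPM in 20d controls and 397, 432 and 450 CPM in 20d mutants (0.48 ± 0.10, adjusted p = 0.0026). eEF1beta, the exchange subunit itself, was at 137, 176 and 149 CPM in controls and 204, 210 and 217 CPM in mutants (0.45 ± 0.08, adjusted p = 0.00087). eEF1delta, a related exchange subunit, was at 45.7, 55.6 and 52.8 CPM in controls and 62.7, 64.7 and 68.4 CPM in mutants (0.35 ± 0.09, adjusted p = 0.0099). In these genes replicate 1 was the lowest of the controls, and every mutant library lay above every control library.

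eEF1alpha1 was at 1463, 2049 and 1764 CPM in 20d controls and 2186, 2396 and 2445 CPM in 20d mutants (0.41 ± 0.11, adjusted p = 0.011). eEF1alpha2 was at 1076, 1014 and 994 CPM in controls and 1044, 1068 and 1112 CPM in mutants, which overlap (95% interval -0.05 to 0.18). The ratio of eEF1alpha1 to eEF1alpha2 within a library, each per kilobase, was 1.47 to 2.18 in 20d controls and 2.26 to 2.42 in 20d mutants. At 3d the same ratio was 1.52 to 1.69 in controls and 1.28 to 1.46 in mutants, so the order of the genotypes was turned.

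At 3d 2 of the eEF1 genes were lower in the mutant and none was higher. eEF1beta was at 208, 200 and 187 CPM in 3d controls and 154, 154 and 171 CPM in 3d mutants (-0.31 ± 0.08, adjusted p = 0.011). eEF1gamma was at 361, 370 and 327 CPM in controls and 272, 279 and 320 CPM in mutants (-0.28 ± 0.10, adjusted p = 0.048, and up to 0.159 with 1 library left out). eEF1alpha1 had 1922, 1949 and 1747 CPM in controls and 1470, 1522 and 1804 CPM in mutants, which overlap (95% interval -0.44 to -0.01, adjusted p = 0.13). At 3d only the 2 called eEF1 genes had an unadjusted p under 0.05, so the interval of eEF1alpha1 cannot be read as a difference. eEF1delta was not called (95% interval -0.28 to 0.08).

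The other elongation factors were higher at 20d too. eEF2 was at 1631, 1799 and 1695 CPM in 20d controls and 2253, 2418 and 2423 CPM in 20d mutants (0.47 ± 0.06, adjusted p = 9.5e-05). eEF5 was at 173, 239 and 196 CPM in controls and 245, 279 and 284 CPM in mutants (0.41 ± 0.10, adjusted p = 0.0074). Both were separate between the groups at 20d, and neither was called at 3d (95% intervals -0.08 to 0.17 for eEF2 and -0.35 to 0.04 for eEF5).

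eIF6, which keeps the large ribosomal subunit from joining too early and acts in its maturation, was at 18.1, 18.8 and 18.5 CPM in 20d controls and 23.4, 27.9 and 26.4 CPM in 20d mutants (0.49 ± 0.08, adjusted p = 0.0003). At 3d it was at 16.8, 17.6 and 17.4 CPM in controls and 14.9, 15.9 and 14.0 CPM in mutants, a lower level that was not called (adjusted p = 0.064). eRF3, the GTPase of termination, was at 77.2, 76.5 and 77.6 CPM in 20d controls and 102, 98.2 and 99.4 CPM in 20d mutants (0.37 ± 0.05, adjusted p = 0.00014). Its partner eRF1, which reads the stop codon, overlapped between the groups at 110, 90.4 and 90.5 CPM in controls and 117, 105 and 99.9 CPM in mutants (95% interval -0.01 to 0.32). eIF1, which guards start codon choice, was called higher at 20d (0.28 ± 0.07, adjusted p = 0.0081), and its partner eIF1A was not (0.14 ± 0.06, adjusted p = 0.077).

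eIF5B, the GTPase that joins the subunits, was not called at either age (-0.13 ± 0.05 at 20d). The row of eIF5, the GTPase activator of eIF2, held only 35 to 124 counts in any library. Of its merged exon bases 80.8% are shared on the same strand with CG46312, whose row had 0 counts throughout, so reads in the shared exons may have been left uncounted and the row cannot be read as the level of eIF5. It was called in neither comparison of mutant with control.

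Of the 44 members, 6 were lower in the mutant at 3d and higher at 20d: eEF1beta, eEF1gamma, eIF2beta, eIF3f1, eIF3i and eIF3m. The 3d calls of eIF2beta and eEF1gamma did not hold in every fit with 1 library left out. Nor did they hold with the trend with exon length taken out. A further 14 were called higher at 20d alone, and 5 were called lower at 3d alone. How often all genes showed these joint patterns was not counted, so it is not known whether they are particular to the members. The difference of the genotype effect between the ages was tested as an interaction in the same fit, and 22 members (50.0%) were called in it, 21 of them with a mutant effect that was more positive at 20d and 1 with a more negative one. Over all genes 18.6% were called, 8.29% and 10.3% in these directions. The median interaction was 0.23 for the members and 0.02 for all genes. With each library's trend with merged exon length taken out, the median was 0.14, 18 members were called on the higher side and none on the lower. In that fit eIF4EHP had an adjusted p of 0.077. Among all 9961 genes that fit called 1473, with a median of -0.005. The counts that follow are again those of the main fit. By group, 4 of 5 eEF1 genes, 7 of 13 eIF3 subunits, 3 of 8 eIF4 factors and 1 of 3 eIF2 subunits were called. The largest were eIF4E6 (1.25 ± 0.22, adjusted p = 0.0017), eIF2beta (0.93 ± 0.11, adjusted p = 0.00023) and eEF1gamma (0.77 ± 0.14, adjusted p = 0.0029), and the 1 negative value was that of eIF4EHP (-0.40 ± 0.09, adjusted p = 0.0067). Of the 23 members higher at 20d, 17 were among those called in the interaction.

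**Figure D2:**
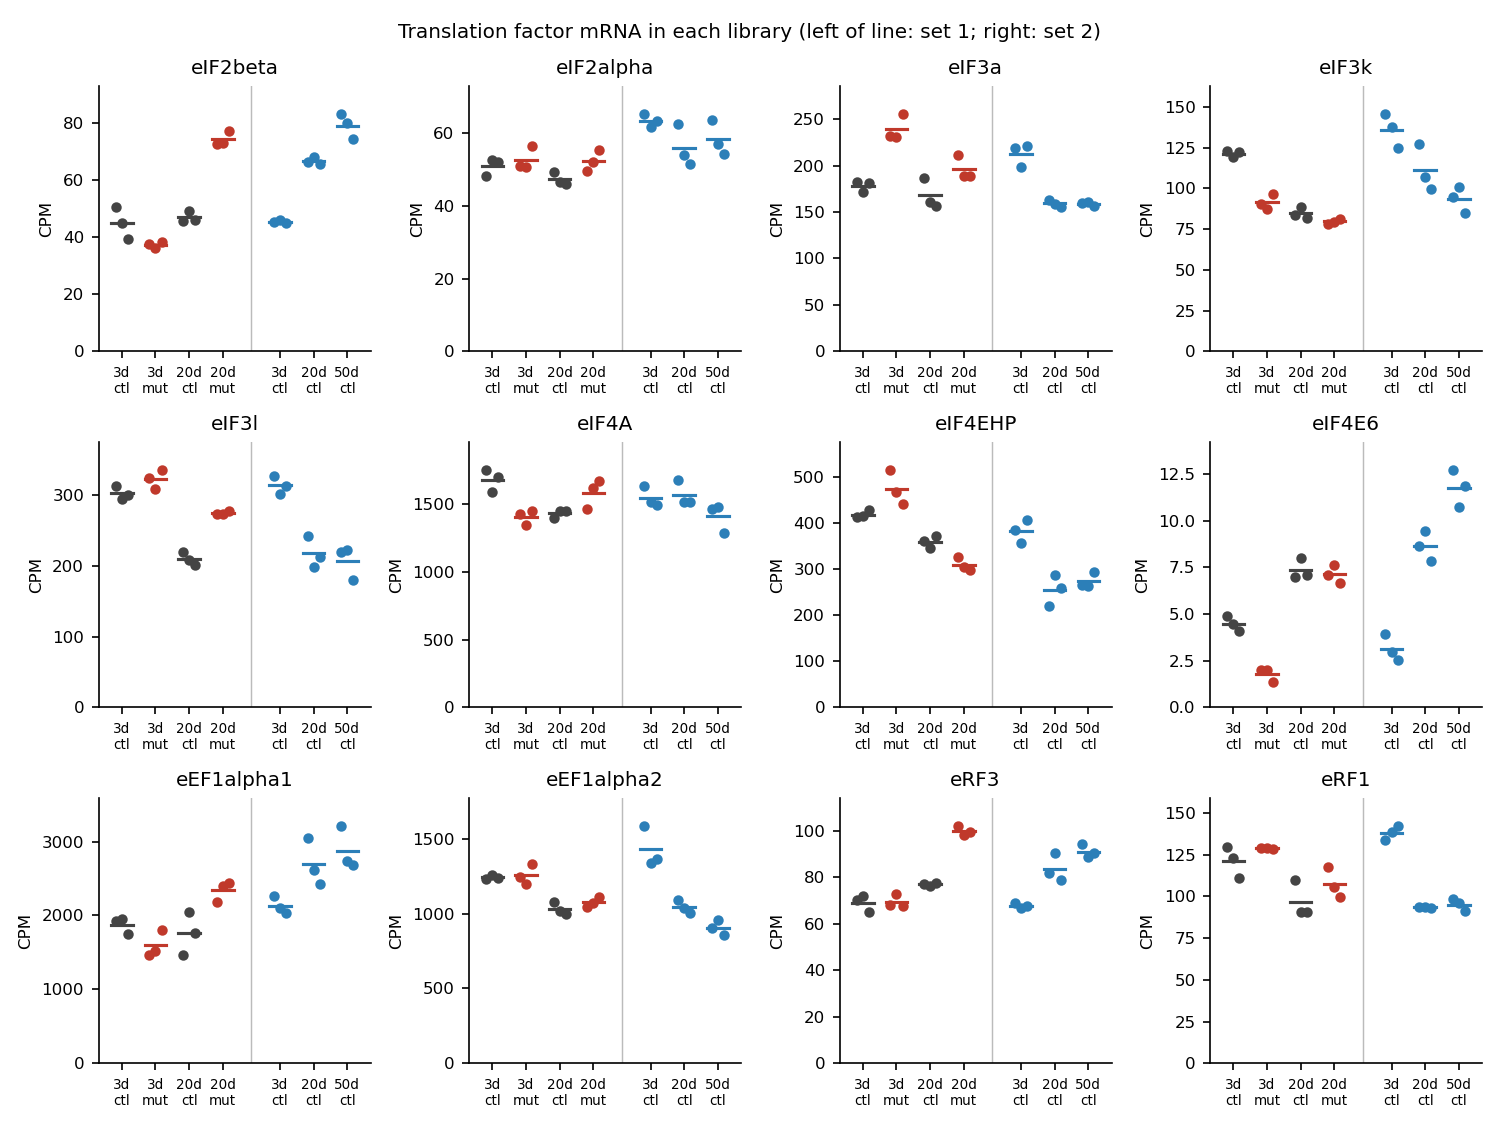
CPM of 12 translation factors in each of the 21 libraries (points) with the group mean (bars), for the 4 groups of set 1 and the 3 control ages of set 2. eIF2beta is highest in 20d mutants within set 1 (72.8 to 77.2 CPM) and climbs with age in the controls of set 2 to 74.3 to 83.1 CPM, while eIF2alpha does not.

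Between 3d and 20d more of these mRNAs fell than rose in control brains. In set 1, 22 of 44 members (50.0%) were called, 4 higher and 18 lower at 20d, where 24.6% of all genes were called (11.3% higher and 13.3% lower), and the median was -0.17 against 0.00 for all genes. In set 2, 18 of 45 (40.0%) were called, 7 higher and 11 lower, where 39.2% of all genes were called (19.3% higher and 19.9% lower), and the median was -0.03 against 0.01. The share called in set 2 is near that of all genes. The sets share no library, and 10 members fell in both: eIF3b, eIF3g1, eIF3h, eIF3k, eIF3l, eIF4E1, eIF4EHP, eIF2Bgamma, eEF1alpha2 and eRF1. These are 10 of the 18 that fell in set 1 and 10 of the 11 that fell in set 2. eIF4E6 and eRF3 rose in both sets, and no member was called in opposite directions. How often all genes were called the same way in both sets was not counted.

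**Figure D3:**
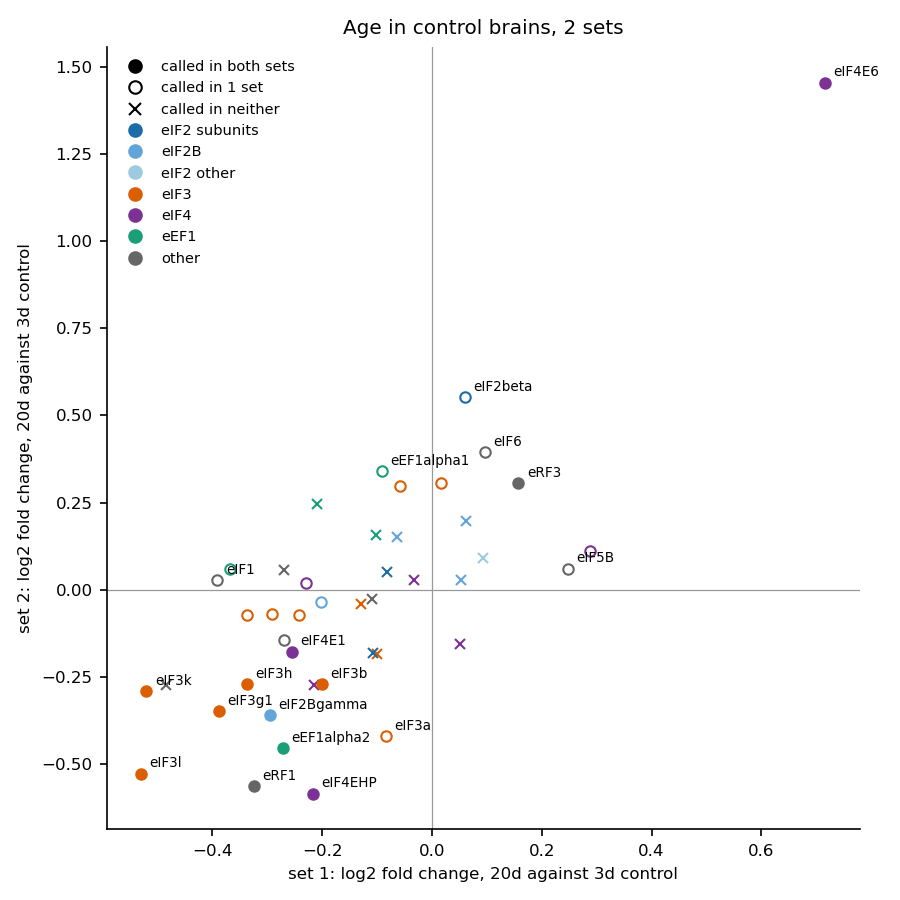
Log2 fold change of 20d against 3d control brains in set 1 (horizontal) and set 2 (vertical) for the 44 translation factors tested in both, coloured by factor group. The 10 members called lower in both sets lie in the lower left, with eIF3l at -0.53 in each set, and eIF2beta lies near 0 in set 1 (0.06) and at 0.55 in set 2.

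eIF3 held 8 of the 18 falls in set 1 and 6 of the 11 in set 2. In controls of set 1, 8 of 13 subunits fell and none rose (median -0.24), and in set 2, 6 fell and 2 rose (median -0.18). eIF3l fell from 313, 294 and 301 CPM at 3d to 219, 209 and 201 CPM at 20d in set 1, and from 327, 302 and 313 CPM to 242, 199 and 213 CPM in set 2. The ages were separate in both sets (-0.53 ± 0.05, adjusted p = 1.8e-05, and -0.53 ± 0.09, adjusted p = 0.00069). eIF3k fell from 123, 119 and 122 CPM to 83.7, 88.6 and 81.5 CPM in set 1 (-0.52 ± 0.05, adjusted p = 2.8e-05). In set 2 it had 145, 138 and 125 CPM at 3d and 127, 107 and 99.6 CPM at 20d, which overlap in 1 library of each age (-0.29 ± 0.10, adjusted p = 0.032, and up to 0.125 with 1 library left out).

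eIF3a differed between the sets. It was not called in controls of set 1, at 182, 172 and 181 CPM at 3d and 187, 161 and 157 CPM at 20d (-0.08 ± 0.07). In set 2 it fell from 219, 199 and 221 CPM to 163, 159 and 156 CPM (-0.42 ± 0.06, adjusted p = 0.00015). The difference between the sets was not tested, since the sets were never put into a common fit.

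The 2 release factors moved apart with age in controls. eRF1 fell from 129, 123 and 111 CPM to 110, 90.4 and 90.5 CPM in set 1 (-0.32 ± 0.08, adjusted p = 0.013) and from 134, 138 and 142 CPM to 93.5, 93.9 and 93.0 CPM in set 2 (-0.56 ± 0.05, adjusted p = 9.7e-06). eRF3 rose from 70.3, 72.1 and 65.0 CPM to 77.2, 76.5 and 77.6 CPM in set 1 (0.16 ± 0.05, adjusted p = 0.048, a call lost in every fit with 1 library left out, with up to 0.195) and from 68.9, 66.7 and 67.6 CPM to 82.1, 90.4 and 78.8 CPM in set 2 (0.31 ± 0.06, adjusted p = 0.0016). The ratio of eRF3 to eRF1 within a library, each per kilobase, went from 0.383 to 0.414 at 3d to 0.497 to 0.605 at 20d in set 1, and from 0.336 to 0.364 to 0.599 to 0.680 in set 2. In 20d mutants it was 0.613 to 0.703, above all 20d controls of set 1.

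The eEF1alpha genes moved apart with age in set 2 and not clearly in set 1. eEF1alpha2 fell from 1230, 1254 and 1240 CPM to 1076, 1014 and 994 CPM in controls of set 1 (-0.27 ± 0.06, adjusted p = 0.0044), and from 1581, 1335 and 1366 CPM to 1089, 1036 and 1001 CPM in set 2 (-0.45 ± 0.08, adjusted p = 0.001). eEF1alpha1 was not called in set 1 (-0.09 ± 0.11), and in set 2 it rose from 2257, 2106 and 2029 CPM to 3051, 2620 and 2422 CPM (0.34 ± 0.10, adjusted p = 0.02). That call was lost without replicate 2 or 3 at 3d or replicate 1 at 20d (adjusted p 0.057, 0.073 and 0.072). The ratio of eEF1alpha1 to eEF1alpha2 overlapped between the ages in controls of set 1 (1.52 to 1.69 at 3d and 1.47 to 2.18 at 20d, with replicate 1 at 20d below every 3d control), and in set 2 it was 1.54 to 1.70 at 3d, 2.61 to 3.02 at 20d and 3.08 to 3.82 at 50d, with no overlap between the ages. Of the other eEF1 genes only eEF1beta was called, in set 1, where it fell from 208, 200 and 187 CPM to 137, 176 and 149 CPM (-0.37 ± 0.08, adjusted p = 0.0059).

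Outside these groups, the cap-binding proteins eIF4E1 and eIF4EHP fell by 0.26 and 0.22 on the log2 scale in set 1 and by 0.18 and 0.58 in set 2. eIF1 fell in set 1, from 145, 142 and 139 CPM to 96.9, 118 and 110 CPM (-0.39 ± 0.07, adjusted p = 0.0017), and was at 157, 152 and 159 CPM at 3d and 157, 160 and 161 CPM at 20d in set 2 (0.03 ± 0.06). eEF2 fell in set 1 (-0.27 ± 0.06, adjusted p = 0.0089) and was not called in set 2 (-0.14 ± 0.08). eIF5B (0.25) and eIF4G2 (0.29), which have some of the longest merged exon lengths of the group, were called higher at 20d in set 1. Their adjusted p were 0.0028 and 0.018, and eIF4G2 had up to 0.0767 with 1 library left out. eIF4E6 rose in both sets, from 4.91, 4.46 and 4.08 CPM to 6.99, 8.01 and 7.09 CPM in set 1 and from 3.90, 2.99 and 2.51 CPM to 8.62, 9.43 and 7.86 CPM in set 2.

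eIF2beta rose with age in set 2 only among the controls. It was at 45.2, 46.2 and 45.0 CPM at 3d, 66.3, 68.1 and 65.8 CPM at 20d and 83.1, 80.2 and 74.3 CPM at 50d, with no overlap between any of the ages (0.55 ± 0.06 at 20d against 3d, adjusted p = 1.5e-05). In controls of set 1 it was not called (0.06 ± 0.08, 95% interval -0.09 to 0.21). eIF6 behaved likewise, with 17.6, 19.9 and 16.7 CPM at 3d, 23.2, 24.2 and 23.9 CPM at 20d and 27.3, 29.8 and 26.1 CPM at 50d in set 2 (0.40 ± 0.08 at 20d against 3d, adjusted p = 0.0023), and 0.10 ± 0.08 in controls of set 1. eIF2alpha and eIF2gamma were called in neither set.

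Between 20d and 50d control brains differed little in these genes. 1 of 45 members (2.22%) was called, eIF2beta (0.25 ± 0.05, adjusted p = 0.015), where 9.72% of all genes were called (5.51% higher and 4.21% lower), and 6 members had an unadjusted p under 0.05. That call was lost without replicate 2 or 3 at 20d or without replicate 1 at 50d (adjusted p up to 0.0656), and DESeq2 called 3 members. At 50d against 3d 18 of 45 (40.0%) were called, 7 higher and 11 lower, against 50.8% of all genes (25.9% higher and 24.9% lower), with a median of 0.00 for the members and 0.02 for all genes. These 2 comparisons share their 3d libraries, and all 11 members lower at 20d and 6 of the 7 higher at 20d were called in the same direction at 50d. The largest were eIF4E6 (1.90 ± 0.15), eIF2beta (0.80 ± 0.06) and eIF6 (0.62 ± 0.08) on the higher side, and eEF1alpha2 (-0.66 ± 0.08), eIF3l (-0.60 ± 0.09) and eIF3k (-0.54 ± 0.10) on the lower side.

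In set 2, eIF4B had 1 low library at each of the later ages, with 51.1, 30.8 and 59.5 CPM at 20d and 55.2, 29.0 and 50.7 CPM at 50d against 57.7, 55.3 and 58.0 CPM at 3d. Its interval is accordingly wide (-0.95 to 0.26 at 50d against 3d), and its other libraries at these ages lay between 50.7 and 59.5 CPM.

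Mutant brains aged differently from the controls of their own set. From 3d to 20d 29 of 44 members (65.9%) were called, 19 higher and 10 lower, where 46% of all genes were called (22.8% higher and 23.2% lower), with a median of 0.10 for the members and 0.02 for all genes. eEF1beta, eIF3i, eIF3m and eIF4A rose with age in mutants and fell in controls, and 8 members fell in both, among them eIF3k, eIF3l, eIF3g1, eIF4EHP, eEF1alpha2 and eRF1. eIF2beta rose from 37.6, 36.2 and 38.4 CPM to 72.8, 72.9 and 77.2 CPM, a fold change of 1.99 (log2 0.99 ± 0.08, adjusted p = 4.6e-07). eIF6 rose from 14.9, 15.9 and 14.0 CPM to 23.4, 27.9 and 26.4 CPM (0.79 ± 0.08, adjusted p = 3.4e-06).

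On the lower side of the mutants' change with age, eIF4EHP went from 514, 467 and 441 CPM to 325, 305 and 298 CPM (-0.62 ± 0.06, adjusted p = 3.4e-06), and eIF3a went from 232, 230 and 255 CPM to 212, 189 and 189 CPM (-0.28 ± 0.07, adjusted p = 0.0062). The row of eIF5 was also called lower (-1.07 ± 0.22), with the limit on that row given above. eIF4E6 rose from 2.02, 2.02 and 1.38 CPM to 7.08, 7.65 and 6.64 CPM (1.97 ± 0.16, adjusted p = 6.1e-07).

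Set against the controls of set 2, with which they share no library, the mutants of set 1 moved the same way in every member called in both. How often all genes called in both moved the same way was not counted, so it is not known whether this is particular to the members. From 3d to 20d 7 members rose in both, eEF1alpha1, eIF2beta, eIF3f1, eIF3j, eIF4E6, eIF6 and eRF3, and 9 fell in both, eEF1alpha2, eIF2Bgamma, eIF3a, eIF3b, eIF3g1, eIF3k, eIF3l, eIF4EHP and eRF1. These 7 are all of those that rose in set 2 and 7 of the 19 that rose in mutants, and the 9 are 9 of the 11 that fell in set 2 and 9 of the 10 that fell in mutants. The remaining 12 that rose in mutants, such as eEF1beta, eEF1gamma, eEF1delta, eEF5, eIF3i and eIF3m, were not called in set 2. Of the 23 members higher in 20d mutants than in 20d controls, 4 rose in set 2 controls between 3d and 50d (eEF1alpha1, eIF2beta, eIF6 and eRF3), 6 fell (eIF3a, eIF3b, eIF3g1, eIF3h, eIF3l and eIF4E1) and 13 were not called. Among all genes tested in set 2, 25.9% rose and 24.9% fell between these ages. eIF4EHP, the 1 lower member, fell there too.

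The differences went with merged exon length, which joins all annotated exons of a gene and need not be the length of any mRNA. Across the 44 members the Spearman correlation of the log2 fold change with merged exon length was 0.53 for mutant against control at 3d and -0.34 at 20d, and over 9934 genes it was 0.25 and -0.16. Genes are not independent replicates, and they share the same libraries. At 3d, 7 of the 15 members under 1500 bases were lower in the mutant and none was higher, whereas of the 11 members of 3000 bases or more 3 were higher and 1 lower. Over all genes 19.6% of those under 1500 bases were lower at 3d and 10.2% higher, and of those of 3000 bases or more 8.62% were lower and 25.7% higher. Within eIF3, where the 4 higher subunits at 3d have 2012 to 3892 bases and the 5 lower ones 853 to 1590, the correlation was 0.80 over 13 subunits. At 20d it was -0.01 within eIF3.

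**Figure D4:**
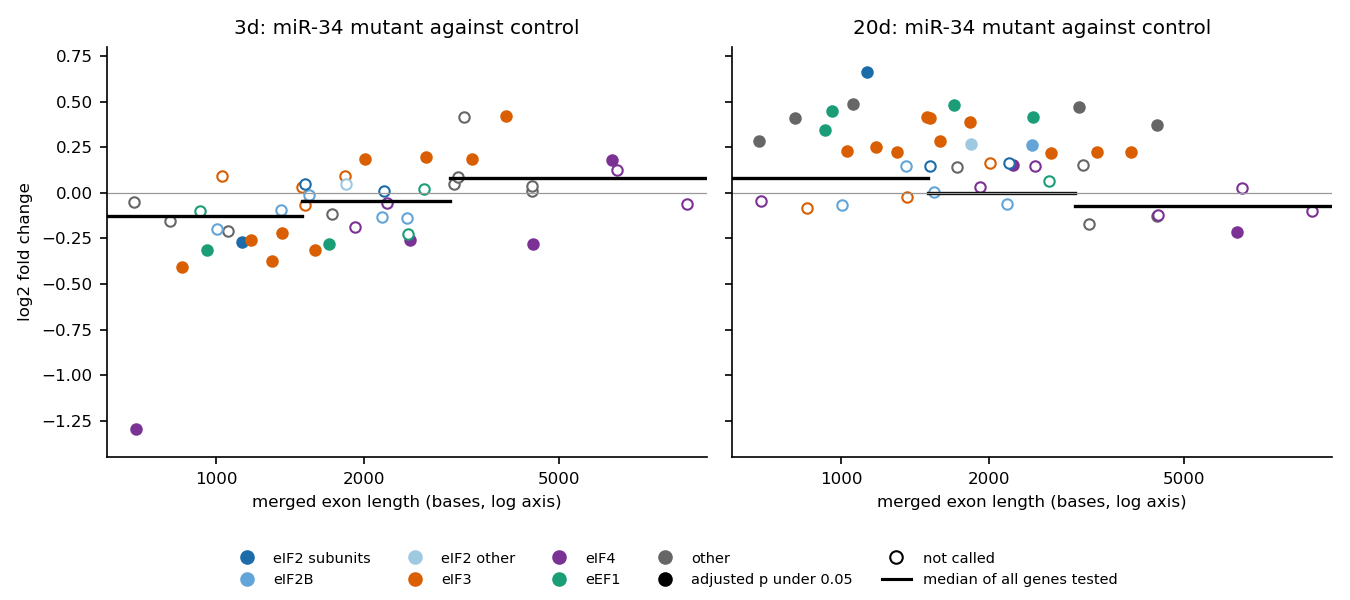
Log2 fold change of miR-34 mutant against control by merged exon length (log axis) for the 44 translation factors at 3d (left) and 20d (right), filled where the adjusted p is under 0.05, with black lines for the median of all genes tested in 3 length classes. At 3d the members follow the lines, which run from -0.13 under 1500 bases to 0.08 at 3000 bases or more, and at 20d most members lie above the line of their class.

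At 20d members of each length class were higher more often than all genes of that class. Of the 15 members under 1500 bases 66.7% were called higher, of the 18 from 1500 to under 3000 bases 50.0%, and of the 11 longer ones 36.4%, where 19.7%, 17.8% and 12.3% of all genes in these classes were. When the trend with length was taken out of every library before the fit, 24 members were higher and 2 lower at 20d, with a median of 0.16, and at 3d 5 were higher and 9 lower. Among all 9961 genes that fit called 3323 at 20d and 3055 at 3d. eIF3c, eIF2beta, eEF1gamma, eIF3j and eIF4EHP were no longer called at 3d in that fit, with adjusted p of 0.066, 0.081, 0.12, 0.14 and 0.37, and eIF3g1, eIF3l and eIF4G2 were called in addition. For age in controls of set 1, 2 were higher and 16 lower in it, where 2109 of 9961 genes were called. Whether the trend comes from the brains or from the RNA and library preparation was not tested.

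Genes that regulate or assist these factors were read from a list of 28, of which 25 were found in the table and 24 tested. At 3d 5 were higher and 3 lower (33.3% called, against 31.4% of all genes). At 20d 6 were higher and 2 lower (33.3%, against 32.1%). These shares are near those of all genes, so the genes named below are single values from a list that was not called more often. Thor, the fly 4E-BP that holds eIF4E away from the cap complex, was at 25.6, 24.0 and 30.9 CPM in 3d controls and 59.9, 52.2 and 87.2 CPM in 3d mutants (1.30 ± 0.20, adjusted p = 0.00098). At 20d it was at 29.3, 43.5 and 36.6 CPM in controls and 58.0, 51.4 and 53.8 CPM in mutants, which did not overlap (0.58 ± 0.20, adjusted p = 0.05, just short of a call). pAbp, the poly(A)-binding protein that joins the tail to eIF4G, was at 2076, 2383 and 2283 CPM in 20d controls and 2979, 3305 and 3228 CPM in 20d mutants (0.50 ± 0.07, adjusted p = 0.00013), and its interaction was called as well (0.67 ± 0.10, adjusted p = 0.00081). Fmr1, an RNA-binding repressor of translation, was the lowest at 20d, at 108, 101 and 106 CPM in controls and 76.8, 73.8 and 75.0 CPM in mutants (-0.48 ± 0.06, adjusted p = 6.7e-05). Lk6, the kinase that phosphorylates eIF4E, was lower at 3d (-0.36 ± 0.08, adjusted p = 0.0038).

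From 3d to 20d 25.0% of these regulators were called in controls of set 1, 50.0% in mutants and 29.2% in set 2. Of all genes 24.6%, 46% and 39.2% were. In set 2 45.8% were called at 50d against 3d and 4.17% at 50d against 20d, where 50.8% and 9.72% of all genes were. With age, raptor, the subunit that selects substrates for TOR complex 1, rose the most of those called among these genes in controls of set 1 (0.37 ± 0.07, adjusted p = 0.003). PPP1R15, which directs the phosphatase of eIF2alpha, fell there (-0.28 ± 0.07, adjusted p = 0.0079). On the same strand 23.5% of the 7097 merged exon bases of raptor overlap Mipp2. In that comparison 22.5% of all genes of 3000 bases or more were called higher. PPP1R15 fell again in set 2, from 117, 123 and 126 CPM at 3d to 92.3, 93.4 and 93.6 CPM at 20d (-0.39 ± 0.06, adjusted p = 0.00027), where Lst8, another subunit of TOR complexes, rose (0.36 ± 0.10, adjusted p = 0.011). S6k, the ribosomal protein S6 kinase downstream of TOR, was the 1 regulator called between 20d and 50d, at 147, 151 and 144 CPM and at 182, 169 and 169 CPM (0.23 ± 0.06, adjusted p = 0.031, a call lost in every fit with 1 library left out, with up to 0.112). From 3d to 50d Lst8 rose by 0.53 ± 0.10, and eEFSec, the elongation factor for selenocysteine, had 4.53, 4.36 and 5.27 CPM at 3d and 2.41, 2.64 and 2.58 CPM at 50d (-0.89 ± 0.15, adjusted p = 0.00035). In mutants pAbp rose with age by 0.68 ± 0.07 and eEFSec fell by 0.89 ± 0.19 on the log2 scale.

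The counts of calls rest on 3 libraries a group. At 3d the 16 calls between mutant and control became 10 without replicate 1 or 2 of the controls or replicate 1 or 2 of the mutants. Nothing in the labels ties same-numbered libraries together, and paralogs and overlapping genes may share reads.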

How the data were processed

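RNA from pooled male brains was sequenced in 21 libraries, 3 biological replicates in each of 7 groups. Per the labels and the study's methods, libraries were polyA-selected, and the authors aligned the reads with HISAT2 to a FlyBase release 6 genome, counted reads per gene with HTSeq and tested them with DESeq2. The releases stated for the genome and the annotation differ, and the strand setting of the counting is not given in the sources used here. The authors deposited whole-number counts per gene without normalization, which were used as they stand.

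From the counts, edgeR 4.0.16 (R 4.3.3) gave TMM factors, CPM and quasi-likelihood tests, with 1 robust fit per set over all genes kept by filterByExpr (minimum count 10), 9961 in set 1 and 10525 in set 2, and Benjamini-Hochberg adjustment over all of them. Genes with an adjusted p under 0.05 were called, and a standard error is the size of the log2 fold change over the square root of the F statistic. An interval is the log2 fold change plus or minus the standard error times a normal multiplier. It takes no account of the few libraries, so it is narrower than its stated level. Such an interval can leave out 0 where the unadjusted p is over 0.05, and calls rest on the test alone. The biological coefficient of variation was 13.0% in set 1 and 12.9% in set 2. Libraries of a group are separate pools of brains. The scripts were tested on simulated counts.

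Positions and merged exon lengths came from the Ensembl annotation on BDGP6.54.

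Members and lists were chosen with earlier results of these data known. Named were the core factors whatever their values (eIF1A, the eIF2 subunits, eIF4A, eIF4B, eIF4E1, eIF4G1, eIF5, eEF5 as the fly eIF5A, eIF6, the eEF1 genes, eEF2, eRF1 and eRF3), in each comparison the 3 called members that rose most and the 3 that fell most, their paralogs, and of the regulators Thor and the called gene that rose or fell most. Other members are named where a count is listed or a complex described, and were chosen after their values were seen. The partner ratios were also chosen after seeing the values.

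The alternatives were DESeq2 1.42.0, RLE size factors, no filter on low counts, a fit of the compared groups alone, a block for replicate number, each library left out in turn and, chosen after seeing the data, an offset that takes out each library's trend with exon length.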

Additional observations from a re-analysis of the deposited data

Results flagged for a closer look

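The genotype effect differed between 3d and 20d, by the interaction test in set 1 (edgeR, adjusted p under 0.05 over all genes), in 22 members. The log2 difference was 1.25 for eIF4E6, 0.93 for eIF2beta, 0.77 for eEF1gamma, 0.76 for eEF1beta, 0.70 for eIF6 and 0.64 for eEF1alpha1. It was 0.60 for both eIF3m and eIF3f1, 0.56 for eEF5, 0.51 for eIF3i, 0.48 for eIF3e, 0.45 for eEF1delta and 0.42 for eEF2. It was 0.40 for eIF4A and eIF2Bepsilon, 0.38 for eIF3h, 0.36 for eRF3, 0.34 for eIF1, 0.32 for eIF3k, 0.30 for eIF3l and 0.26 for eIF1A. Only eIF4EHP had a negative value, -0.40. eIF1, eIF1A, eIF3k, eEF1delta and eIF4EHP were not called in the interaction when the trend with exon length was taken out, with adjusted p of 0.35, 0.18, 0.25, 0.15 and 0.077.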

How the results depend on the processing

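No called value changed direction under any alternative. The members' medians in set 2, which lie near 0, changed sign with 1 library left out, from -0.031 to 0.011 for 20d against 3d (reported as -0.03) and from -0.014 to 0.053 for 50d against 20d (0.02), and that for 50d against 3d (0.00) was -0.01 with RLE size factors and with DESeq2. Of 3939 values of 312 results for single genes and comparisons, 3650 stayed on the same side of the threshold, 220 lost the call and 69 gained it. With the length trend taken out, the members' median was 0.16 at 20d between mutant and control (0.19 before), -0.13 for control age in set 1 (-0.17) and 0.14 for the interaction (0.23). Between 50d and 20d, 1 member was called in the fit reported, 3 with the replicate number as a block, 3 with DESeq2, 2 with only these groups in the fit, 2 with the length trend taken out, and 0 to 1 with 1 library left out. With 1 library left out, calls ran from 10 to 13 at 3d and 18 to 25 at 20d between mutant and control, 15 to 20 and 21 to 26 for age in controls and mutants of set 1, 17 to 23 for the interaction, 13 to 18 for 20d and 17 to 20 for 50d against 3d in set 2. The medians ran from 0.18 to 0.23 at 20d between mutant and control, from 0.21 to 0.29 for the interaction and from -0.044 to 0.073 for 50d against 3d in set 2. The fits reported did not pair libraries by replicate number. In no comparison did every same-numbered pair correlate above 0.1 (from -0.16 to 0.33 over all pairs), but so few pairs cannot exclude a tie between them. The correlations were 0.30, 0.22 and 0.02 between mutant and control at 20d, and 0.23, 0.09 and 0.33 between 50d and 20d. Of these 312 results, called or not, the block turned 7 into calls and ended 6. Depth limits eIF4E6 and eIF5, whose highest levels were 12.7 and 6.10 CPM, and the members with too few counts to test.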
